A study of Mus musculus with 6 samples.

Results

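The microRNAs described are 10 products of the miR-17-92 cluster and of its paralogous clusters miR-106a-363 and miR-106b-25, measured in mouse aorta. Assays were chosen by name from the deposited tables (miR-17, miR-18a, miR-19a, miR-19b, miR-20a, miR-92a, miR-106a, miR-106b, miR-93 and miR-25, without passenger strands). All 10 were found, of 517 microRNA assays in all. Each of the 6 samples was the whole aorta of a male Apoe-deficient mouse carrying Cre at the lysozyme M locus. The 3 Dicer_KO mice (LysM-Cre/Dicerflox/flox/Apoe-/-) had floxed Dicer, and the 3 Dicer_WT mice (LysM-Cre/Dicerwt/wt/Apoe-/-), their littermates, carried that Cre with unfloxed Dicer. All were given food with 21% crude fat for 12 weeks from 6 to 8 weeks of age. The lysozyme M promoter drives Cre in myeloid cells (macrophages, monocytes, neutrophils), whereas smooth muscle and endothelium, which do not use it, should keep Dicer. An aorta pools all of these cells.

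Clustered microRNAs are cut from one primary transcript by Drosha, and each hairpin is then cut by Dicer into a duplex of which mainly one strand is kept. The miR-17-92 transcript, from the host gene Mir17hg, is activated by MYC and E2F factors, favours proliferation and survival, and is known for its roles in lymphocytes, in blood cell formation and, through miR-92a, in blood vessel growth. The bases at positions 2 to 8 of the mature strand, the seed, choose most target mRNAs, so that microRNAs of one seed share many targets wherever their genes lie. miR-17 seed members act on cell cycle inhibitors and Bim.

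Mature strands were taken from RefSeq (build GRCm38.p6), which matched 10 of 10 members. By tradition the unstarred assay name was read as the more abundant strand, which is the 5p strand for miR-17, miR-18a, miR-20a, miR-106a, miR-106b and miR-93 and the 3p strand for miR-19a, miR-19b, miR-92a and miR-25. The miR-17-92 hairpins lie at chr14:115043671-115044506 (plus strand), those of miR-106a-363 at chrX:52741693-52742567 (minus strand) and those of miR-106b-25 at chr5:138165321-138165818 (minus strand), inside the gene Mcm7, which encodes a DNA replication helicase subunit. Mature miR-19b and miR-92a come from both the chromosome 14 and the X cluster, and no assay can tell these sources apart. The sequences are shown because the comparisons turn on which members share a seed and which are nearly the same molecule. They run 5′ to 3′ with the seed in capitals. The first 6 share the miR-17 seed, and miR-20b, which is not among the 10, is set beside them.
miR-17: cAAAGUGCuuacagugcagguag
miR-20a: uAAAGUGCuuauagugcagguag
miR-106a: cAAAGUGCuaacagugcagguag
miR-106b: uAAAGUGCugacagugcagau
miR-93: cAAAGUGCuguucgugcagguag
miR-20b: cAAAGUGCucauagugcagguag
miR-18a: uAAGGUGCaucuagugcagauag
miR-19a: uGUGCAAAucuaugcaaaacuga
miR-19b: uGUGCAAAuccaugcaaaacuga
miR-92a: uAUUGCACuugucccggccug
miR-25: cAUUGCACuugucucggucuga
miR-32: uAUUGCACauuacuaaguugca

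The last of these, miR-32, comes from a gene outside the 3 clusters and carries the miR-25 and miR-92a seed. Counted from the 5′ end, miR-106a differs from miR-17 by the single substitution U10A, and miR-19b from miR-19a by U11C. miR-20a differs from miR-17 by C1U and C12U. Within the RefSeq table, 7 of 1679 mature strands carried the miR-17 seed (0.417%), 6 the miR-25 and miR-92a seed (0.357%), and 2 each the miR-18 and miR-19 seeds. Signals of strands that differ by so little can be mixed in a PCR assay, and cross-reaction was not tested.

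As a check of the tissue, cell markers were read. All 11 markers were detected in every aorta. The smooth muscle markers miR-143 and miR-145 had threshold cycles (Ct) of 11.53 to 16.19, and the myeloid markers miR-223, miR-511 and both strands of miR-142 ones of 19.24 to 28.96. The labels name the macrophage as cell type, but the markers of smooth muscle are present throughout. Below Ct 35, the limit taken for detection, lay 374 to 378 assays per Dicer_WT aorta and 349 to 366 per Dicer_KO aorta. Dicer mRNA was not measured, so the genotypes had no check in these data. As the number of aortas is small, 3 against 3, an exact permutation test of a single value cannot give a two-sided p below 0.1.

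Every one of the 10 members was detected in all 6 aortas, and every one lay on the same array card. A Ct is the PCR cycle at which a product passes a threshold, lower by 1 for each doubling of the RNA, and Ct values of different assays were not compared as levels. Mean Ct in Dicer_WT aortas ran from 17.51 ± 0.46 for miR-19b to 27.69 ± 0.63 for miR-18a (SD, n = 3). In Dicer_KO aortas these Ct values were 17.84 ± 0.20 and 28.58 ± 0.34. Relative quantities, given below, are the authors' deposited linear values against reference RNAs of the same aorta, with the geometric mean of the Dicer_WT aortas at 1.

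No difference between genotypes passed the test for any member. Of 377 assays tested across the table, 1.86% were called lower in Dicer_KO aortas and 0 higher (limma, Benjamini-Hochberg adjusted p under 0.05), and of the 10 members 0 were called in either direction, with 0 at an unadjusted p under 0.05 against 26.8% of all assays. For 0 of 10 members did the genotypes not overlap, against 35% of all assays (32.6% lower and 2.39% higher in Dicer_KO aortas). The log2 fold changes, Dicer_KO over Dicer_WT, ran from -0.67 for miR-18a to 0.21 for miR-25, with 8 of 10 below 0 where 78.2% of all assays were. Their median was -0.21, beside -0.42 over all assays tested, and 9 of 10 lay above that table-wide median. In bulk tissue, fewer cells of a type and less RNA per cell cannot be told apart.

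**Figure D1:**
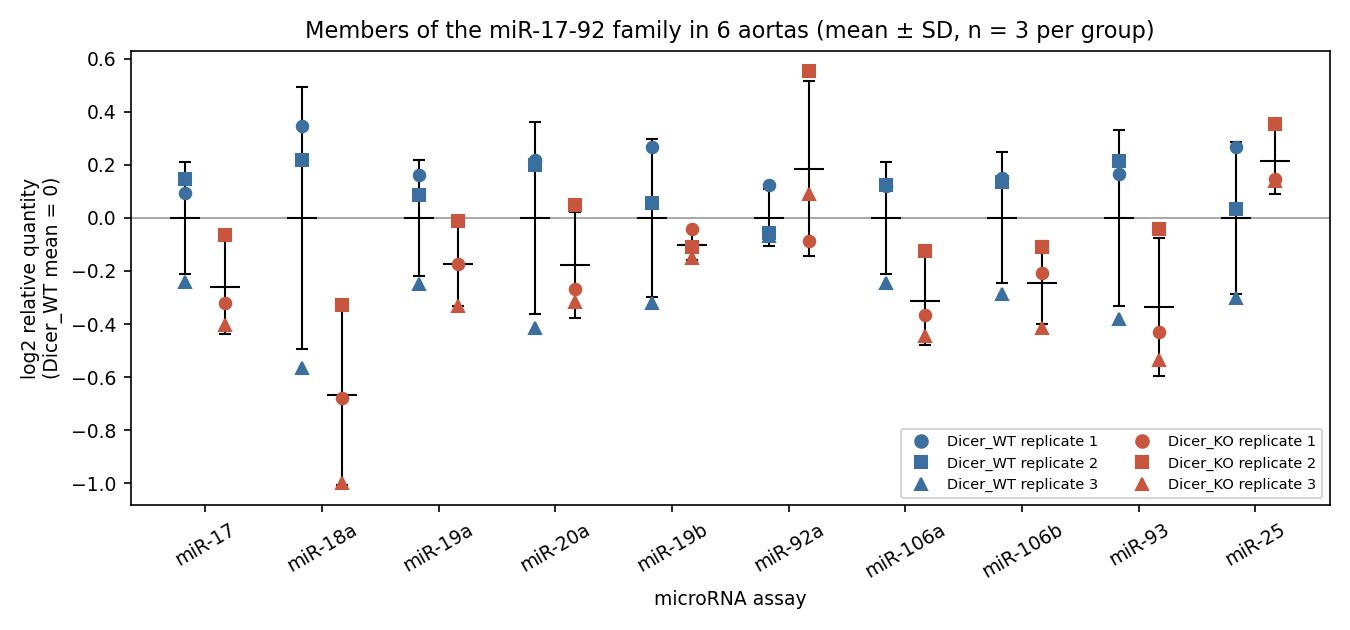
Log2 relative quantity (vertical axis, Dicer_WT mean at 0) of each of the 10 members in each aorta, with blue points for Dicer_WT, red points for Dicer_KO, a marker shape per replicate, and mean ± SD bars (n = 3 per group). The genotypes overlap for every member, Dicer_WT replicate 3 is the lowest of its group throughout, and the Dicer_KO mean lies above 0 only for miR-92a and miR-25.

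The 5 members of the miR-17 seed group, which target the cell cycle inhibitor p21 among others, lay close together. miR-17, the founding member, had relative quantities of 1.07, 1.11 and 0.846 in Dicer_WT and 0.801, 0.957 and 0.757 in Dicer_KO replicates 1 to 3. For miR-106a, its near copy from the X chromosome, they were 1.09, 1.09 and 0.844 in Dicer_WT and 0.775, 0.917 and 0.734 in Dicer_KO aortas. In both, Dicer_WT replicates 1 and 2 were the highest of all 6, and Dicer_WT replicate 3 lay among the Dicer_KO aortas. The log2 fold changes were -0.26 ± 0.20 and -0.31 ± 0.20 (SE, n = 3 each, limma adjusted p = 0.359 and 0.302). As linear folds these were 0.834 (95% interval 0.594 to 1.17) and 0.805 (0.575 to 1.13).

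miR-20a, from the middle of the miR-17-92 transcript, gave 1.16, 1.15 and 0.749 in Dicer_WT and 0.830, 1.04 and 0.804 in Dicer_KO aortas. Its lowest value of all was that of Dicer_WT replicate 3. The log2 fold change was -0.18 ± 0.25 (SE, limma adjusted p = 0.592), or -0.069 without Dicer_WT replicate 1 and -0.39 without Dicer_WT replicate 3. From the Mcm7 gene, miR-106b gave 1.11, 1.099 and 0.821 against 0.866, 0.927 and 0.751, and miR-93 gave 1.12, 1.16 and 0.768 against 0.743, 0.973 and 0.690. Again Dicer_WT replicates 1 and 2 stood highest and replicate 3 lay among the Dicer_KO aortas. The values were -0.24 ± 0.20 and -0.33 ± 0.25 (SE, limma adjusted p = 0.396 and 0.356). The median log2 fold change of the seed group was -0.26, with all 5 members between -0.33 and -0.18.

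miR-18a, whose seed differs from that of miR-17 at a single base and which is known to act on connective tissue growth factor, had the lowest value of the 10 and the highest Ct. Its relative quantities were 1.27, 1.16 and 0.676 in Dicer_WT and 0.625, 0.797 and 0.500 in Dicer_KO aortas. The range within Dicer_WT was thus wider than the distance between the group means, 1.04 ± 0.32 and 0.641 ± 0.15 (SD, n = 3 each). The log2 fold change was -0.67 ± 0.32 (SE, limma adjusted p = 0.226), with a 95% interval of -1.46 to 0.12, the widest among the members. It was -0.95 without Dicer_WT replicate 3 and -0.50 without Dicer_WT replicate 1, and passed under neither.

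The miR-19 seed pair, the part of the cluster best known for driving lymphoma, was nearer to 0. For miR-19a the relative quantities were 1.12, 1.06 and 0.841 in Dicer_WT and 0.886, 0.992 and 0.795 in Dicer_KO aortas. miR-19b, the member with the lowest Ct, gave 1.20, 1.04 and 0.7997 against 0.972, 0.926 and 0.900. All 3 Dicer_KO aortas lay inside the range of the Dicer_WT aortas for miR-19b, whose SD on the log2 scale was 0.30 in Dicer_WT and 0.06 in Dicer_KO aortas. The log2 fold changes were -0.17 ± 0.20 and -0.10 ± 0.21 (SE, limma adjusted p = 0.529 and 0.720), and that of miR-19b turned to 0.03 without Dicer_WT replicate 1.

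Both members of the miR-25 and miR-92a seed group had log2 fold changes above 0, although they come from different clusters. miR-92a, which restrains vessel growth and acts on integrin alpha 5, gave 1.09, 0.962 and 0.954 in Dicer_WT and 0.943, 1.47 and 1.06 in Dicer_KO aortas. Its highest value was that of Dicer_KO replicate 2 and its lowest that of Dicer_KO replicate 1. miR-25, the last hairpin of the Mcm7 cluster, gave 1.20, 1.02 and 0.810 in Dicer_WT and 1.11, 1.28 and 1.101 in Dicer_KO aortas, where Dicer_WT replicate 1 overlapped the other genotype. The values were 0.19 ± 0.22 and 0.21 ± 0.21 (SE, limma adjusted p = 0.543 and 0.464), or folds of 1.14 (95% interval 0.777 to 1.66) and 1.16 (0.808 to 1.66). Single aortas weighed on both values: miR-92a was at 0.002 without Dicer_KO replicate 2 and miR-25 at 0.06 without Dicer_WT replicate 3. In the authors' deposited table, a ratio of arithmetic means, the fold was 1.16 for miR-92a and 1.15 for miR-25, with the other 8 members between 0.618 for miR-18a and 0.920 for miR-19b.

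**Figure D2:**
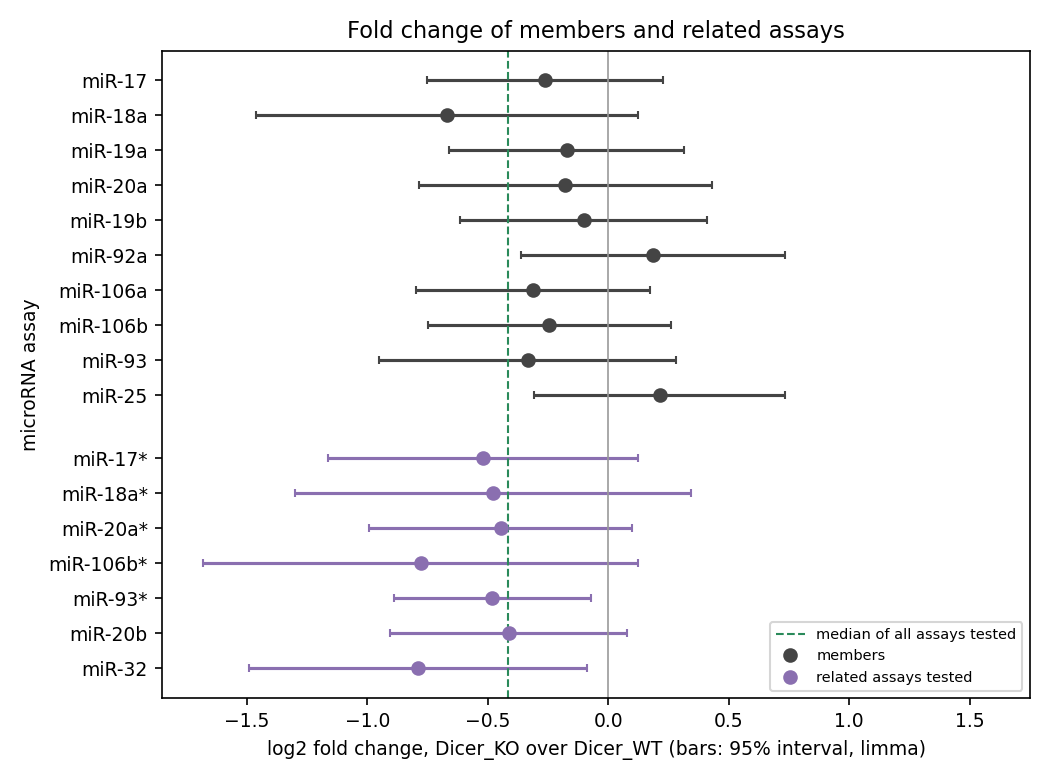
Log2 fold change, Dicer_KO over Dicer_WT (horizontal axis), with 95% limma intervals for the 10 members (dark) and 7 related assays (purple), against 0 (grey line) and the median of all 377 assays tested (dashed, -0.42). Every member's interval includes 0, and only miR-93* and miR-32 among the related assays have an interval that does not.

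By cluster, the medians were -0.17 over the 6 members of miR-17-92 and -0.24 over the 3 members of miR-106b-25, and miR-106a stood alone for miR-106a-363 at -0.31. By seed, they were -0.26 for miR-17, -0.14 for miR-19 and 0.20 for miR-25 and miR-92a, with miR-18a at -0.67. The medians of the clusters thus lay nearer to each other than those of the seed groups. But miR-17-92 and miR-106b-25 each mix seeds, with members from -0.67 to 0.19 and from -0.33 to 0.21. The wider span by seed rested on miR-18a and on the pair of miR-25 and miR-92a. No test was made of a score over members. Per aorta, the median of the miR-25 and miR-92a seed pair was 0.20, -0.01 and -0.19 on the log2 scale in Dicer_WT and 0.03, 0.45 and 0.11 in Dicer_KO replicates 1 to 3. For the miR-17 seed group it was 0.15, 0.15 and -0.28 in Dicer_WT and -0.32, -0.06 and -0.41 in Dicer_KO aortas. Dicer_KO replicate 2 was the highest of its genotype in both, and Dicer_WT replicate 3 the lowest of its own.

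A difference between the Ct values of 2 members in the same aorta uses no reference RNA, since all 10 were read on the same card, and it shows whether the ratio of microRNAs cut from one transcript, or sharing one seed, differs between genotypes. Of 45 pairs, 18 did not overlap between genotypes (exact permutation p = 0.1 for each, two-sided, the smallest possible, adjusted p = 0.250 over the 45 pairs), so none passed. Among all 23436 pairs of the 217 assays of that card detected in every aorta, 31.3% did not overlap. Each pair was ordered by log2 fold change, so the direction of a pair is set by that order, and pairs share members. The 18 pairs comprised 12 of 16 between the miR-25 and miR-92a seed group and the other members, and 6 of the remaining 29.

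Within the Mcm7 transcript, miR-25 was higher relative to both neighbours in every Dicer_KO aorta than in any Dicer_WT aorta. Relative to miR-106b, the Ct advantage of miR-25 was -2.17, -2.39 and -2.31 cycles in Dicer_WT and -1.93, -1.82 and -1.73 in Dicer_KO aortas, where a higher value means more miR-25 per miR-106b. Every Dicer_KO aorta lay above every Dicer_WT aorta, and the ratio differed by 0.46 ± 0.09 cycles (SE), a fold of 1.37. Relative to miR-93 it was -1.56, -1.84 and -1.59 in Dicer_WT and -1.09, -1.27 and -0.99 in Dicer_KO aortas. This ratio differed by 0.55 ± 0.12 cycles (SE), with no overlap. The other pair of this transcript, miR-106b against miR-93, differed by 0.09 ± 0.10 cycles (SE) and overlapped (exact permutation p = 0.4, n = 3 each, adjusted p = 0.486). For miR-25, all 8 pairs with members of other seeds did not overlap, with differences of 0.31 to 0.88 cycles. But miR-25 was likewise relatively higher in Dicer_KO aortas, without overlap, in 58.3% of its pairs with the other 216 assays of the card. The separation was thus not shown to be particular to this family.

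miR-92a, whose hairpin is the last of miR-17-92, was also higher relative to miR-17 in every Dicer_KO aorta than in any Dicer_WT aorta, with more spread. Mature miR-92a and miR-19b come from the X cluster as well, so their ratios are not those of a single transcript. The Ct advantage of miR-92a over miR-17, from the first hairpin, was -0.46, -0.69 and -0.32 cycles in Dicer_WT and -0.26, 0.13 and 0.003 in Dicer_KO aortas. These did not overlap, with a difference of 0.45 ± 0.16 cycles (SE). Against miR-20a the difference was 0.36 ± 0.20 cycles and against miR-19b, its direct neighbour, 0.29 ± 0.24 (SE). Both of these overlapped (exact permutation p = 0.2 and 0.3, n = 3 each, adjusted p = 0.281 and 0.386). For miR-92a, 4 of 8 pairs with members of other seeds did not overlap, all with miR-92a relatively higher in Dicer_KO aortas. It was higher in this way in 37.5% of its pairs with other assays of the card. Pairs apart in the other direction are not in that share. miR-25 against miR-92a differed by 0.03 ± 0.17 cycles (SE, exact permutation p = 0.9, n = 3 each) with overlap. Leaving out any 1 aorta kept every difference of miR-25 and miR-92a against the other 8 members above 0, from 0.098 to 1.103 cycles.

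**Figure D3:**
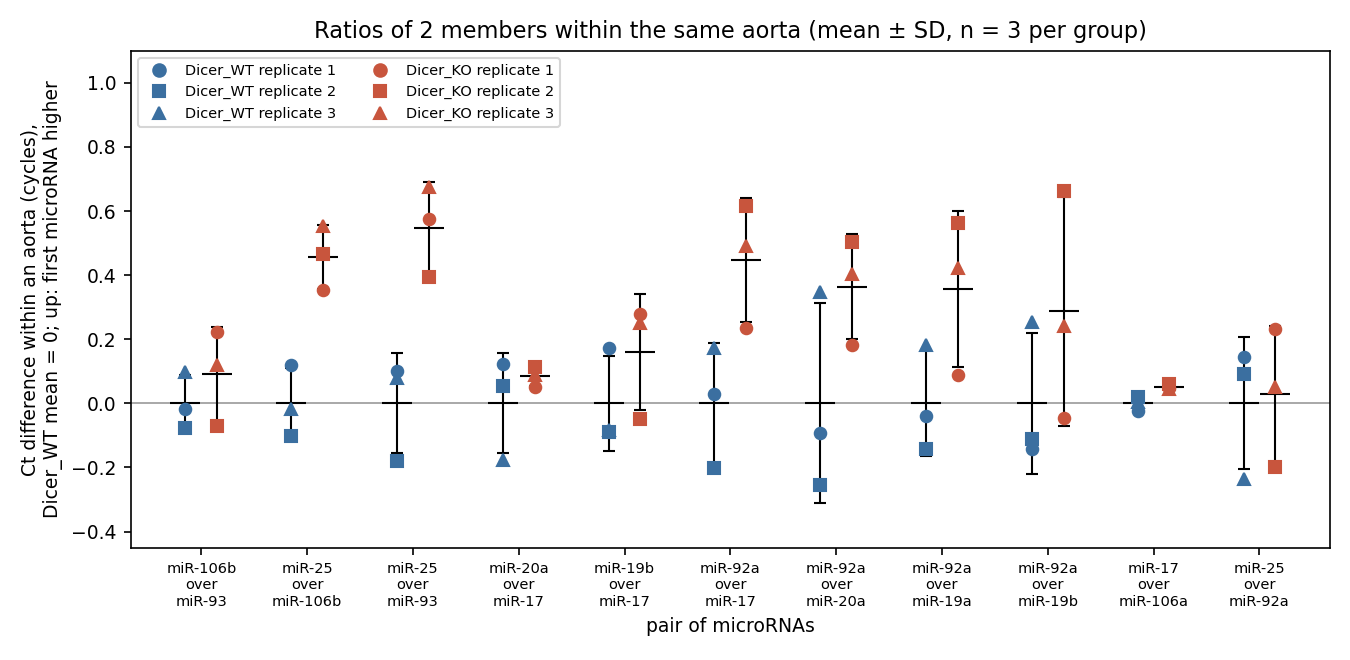
Difference of Ct between 2 members of the same aorta (vertical axis, cycles, Dicer_WT mean at 0, upward meaning more of the first microRNA) for 11 pairs, with blue points for Dicer_WT, red for Dicer_KO and mean ± SD bars (n = 3 per group). The pairs of miR-25 with miR-106b and miR-93, and of miR-92a and miR-17, do not overlap, whereas miR-106b over miR-93 and miR-25 over miR-92a do.

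**Figure D4:**
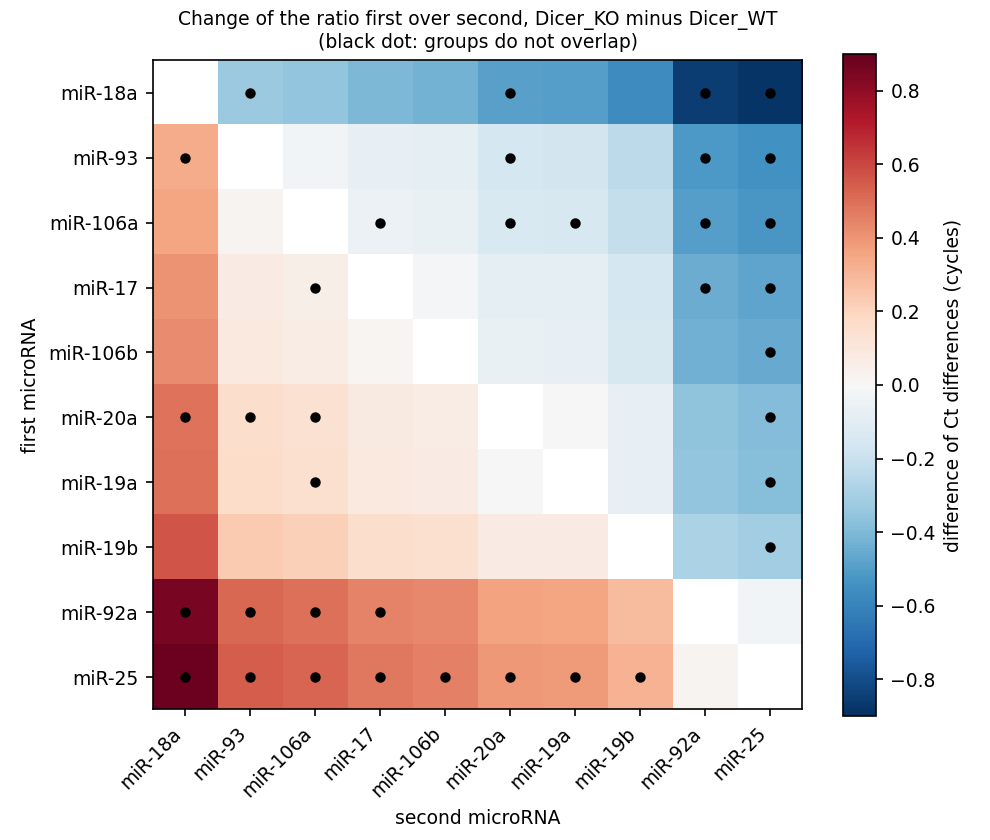
Change of the Ct difference from Dicer_WT to Dicer_KO (colour, cycles) for the 45 pairs of members, each shown in both orders, ordered by log2 fold change, with a black dot where the genotypes do not overlap. The rows of miR-92a and miR-25 are red against all 8 other members, from 0.29 to 0.88 cycles, and the 10 pairs within the miR-17 seed group are pale, from 0.02 to 0.16 cycles.

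How alike the members were from aorta to aorta was described over all 6 aortas, genotype included. As a measure, the root mean square deviation of the Ct difference of a pair over the 6 aortas was taken, which is 0 when 2 assays shift by the same amount everywhere. It was 0.20 cycles in the median over the 45 pairs, against 0.45 over all pairs of the card and 0.32 over pairs of the 91 assays with a mean Ct in the range of the members other than miR-18a. By seed, pairs of the same group had a median of 0.10 (12 pairs, 10 of them of the miR-17 seed) and pairs of different groups 0.26 (33 pairs). Without miR-18a, miR-92a and miR-25, the 21 pairs left, which mix the miR-17 and miR-19 seeds, also had 0.10. The contrast by seed thus rested on these 3 members. By cluster, pairs of the same cluster had 0.26 (18 pairs) and pairs of different clusters 0.17 (27 pairs). Members share aortas, and these values are a description with no test.

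The closest pair was miR-17 and miR-106a, which lie on different chromosomes and differ by the substitution U10A. Their Ct advantage, miR-17 over miR-106a, was -0.06, -0.01 and -0.03 cycles in Dicer_WT and 0.01, 0.03 and 0.01 in Dicer_KO aortas. The deviation of 0.03 cycles was the second smallest among the 23436 pairs. The genotypes did not overlap even so, with a difference of 0.05 ± 0.01 cycles (SE). miR-19a and miR-19b, likewise 1 base apart, had a deviation of 0.11 cycles and miR-17 and miR-20a one of 0.10.

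Seen from the mean profile of the 10 members, the nearest of 330 assays detected in every aorta, with values centred per assay, were miR-26b* at a root mean square difference of 0.041 on the log2 scale, then the member miR-19a at 0.041. The 5 nearest assays outside the family were miR-26b*, miR-29a* (0.094), miR-30b (0.113), miR-491 (0.115) and miR-142-5p (0.117), the last a leukocyte microRNA. The farthest members were miR-18a at 0.29, miR-92a at 0.25 and miR-25 at 0.21, and the median over all 330 assays was 0.345. Each member is itself part of the mean profile.

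The related assays comprised other strands of the same hairpins, further products of miR-106a-363 and further microRNAs with the miR-25 and miR-92a seed. Of 13 such assays in the tables, 7 passed the filter on detection, and 0 of these 7 were called in either direction. Their groups did not overlap for 3 of 7, all lower in Dicer_KO aortas, where 32.6% of all assays were. On other scales this count was 4 relative to U6 alone (24.9% of all assays) and 3 on non-normalized Ct (31%). It was 2 with mean centring (20.2%) and 1 relative to the snoRNAs alone (28.1%). It was 0 relative to U87 and Y1 (10.3%) and after quantile normalization (14.9%). The 6 left out were miR-18b, detected in no aorta, miR-19a*, miR-92a* and miR-20b*, each detected in 1 aorta, and miR-363 and miR-367, each in 2. miR-92b was not analysed here.

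The 5 other strands that were tested, normally the strand discarded when the guide enters Argonaute, all had log2 fold changes below 0, with a median of -0.48. Relative quantities of miR-93* were 1.07, 1.03 and 0.906 in Dicer_WT and 0.723, 0.754 and 0.674 in Dicer_KO aortas, without overlap (-0.48 ± 0.17, SE, limma adjusted p = 0.147). miR-20a* gave 1.22, 1.06 and 0.779 against 0.759, 0.768 and 0.680, again without overlap (-0.45 ± 0.22, adjusted p = 0.226). The remaining strands were miR-17* at -0.52, miR-18a* at -0.48 and miR-106b* at -0.78 (limma adjusted p = 0.228, 0.334 and 0.226), and these overlapped.

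The log2 fold change of the unstarred strand lay above that of its partner for 4 of 5 hairpins, the exception being miR-18a. For miR-20a the difference of both strands was -0.07, 0.12 and -0.06 on the log2 scale in Dicer_WT and 0.13, 0.43 and 0.24 in Dicer_KO aortas, a change of 0.27 ± 0.11 (SE, exact permutation p = 0.1, n = 3 each, adjusted p = 0.180 over 9 such pairs). For miR-106b it was 0.53 ± 0.30 and for miR-17 0.26 ± 0.17 (SE, exact permutation p = 0.2 and 0.3, n = 3 each, adjusted p = 0.300 and 0.386). The starred assays lie on the second card, normalised on its own, so card and strand cannot be told apart here.

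The first card also held relatives by seed. miR-20b, from the X cluster, stood at -0.41 ± 0.20 (SE) on the log2 scale, with a limma adjusted p of 0.226. The differences of miR-20a and miR-106a from miR-20b were higher in Dicer_KO aortas without overlap, by 0.23 ± 0.08 and 0.10 ± 0.03 (SE). For both, the exact permutation p was 0.1 (n = 3 each, adjusted p = 0.180). miR-32 carries the seed of miR-25 and miR-92a, yet its relative quantities were 1.00, 1.27 and 0.788 in Dicer_WT and 0.601, 0.734 and 0.439 in Dicer_KO aortas. These did not overlap, and the log2 fold change of -0.79 ± 0.28 (SE) had a limma adjusted p of 0.149, the opposite sign to that of miR-25 and miR-92a. The difference of miR-25 from miR-32 was 0.27, -0.31 and 0.04 in Dicer_WT and 0.88, 0.80 and 1.33 in Dicer_KO aortas, a change of 1.00 ± 0.23 (SE). For miR-92a the change was 0.98 ± 0.27 (SE, exact permutation p = 0.1, n = 3 each, adjusted p = 0.180, for both).

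Markers of other cells were read in the same aortas. The mean of the erythroid markers miR-486 and miR-451 (a microRNA cut by Ago2 in place of Dicer) on the log2 scale was 0.85, 0.15 and -0.998 in Dicer_WT and 1.00, 1.65 and 1.06 in Dicer_KO replicates 1 to 3. Dicer_WT replicate 3 was the lowest and Dicer_KO replicate 2 the highest, and miR-25 had its lowest and highest value in the same aortas. Dicer_WT replicate 3 was the lowest of its genotype for every member. The members other than miR-25 and miR-92a had their highest value in Dicer_WT replicate 1 or 2. miR-92a was highest in Dicer_KO replicate 2 but lowest in Dicer_KO replicate 1. Of the 2 erythroid markers 0 were called (limma adjusted p = 0.202 and 0.176). The mean of the 4 myeloid markers was -0.26 to 0.29 in Dicer_WT and -1.21 to -0.50 in Dicer_KO aortas, with 0 of 4 called. The 4 differed among themselves, with log2 fold changes of -1.66 for miR-223 and -1.99 for miR-511 (limma adjusted p = 0.0641 and 0.0542) and of -0.07 for miR-142-3p and -0.09 for miR-142-5p (adjusted p = 0.802 and 0.755). The 2 smooth muscle markers had a mean of -0.15 to 0.13 and -0.82 to -0.19, the 2 endothelial markers one of -0.24 to 0.16 and -0.23 to 0.59, and the hepatocyte microRNA miR-122 lay at -1.44 to 1.22 and 0.995 to 1.81, in the same order. The part of any of these cell types in the values of miR-25, miR-92a and the other members was not tested.

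The sign of most members depended on the scale. With U87 and Y1 as reference RNAs, 1 of 10 members was below 0, miR-18a at -0.16, and the median was 0.30, where that of all assays was 0.16. Relative to U6 alone 8 of 10 were below 0, with a median of -0.38 against -0.61 over all assays. With each aorta centred on its mean, the median was 0.16 and 1 of 10 lay below 0. miR-25 and miR-92a were above 0 on 6 of 7 scales, and on non-normalized Ct they were at -0.01 and -0.04. On none of the 7 was any member called (limma, lowest adjusted p = 0.0962, after quantile normalization). Of the members, 9 of 10 lay above the median of all assays on 6 scales and 7 of 10 after quantile normalization. Those 6 scales shift all assays of an aorta and card by the same amount, so their counts were not independent. After quantile normalization the median of the members was 0.033, where that of all assays was 0.0032.

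**Figure D5:**
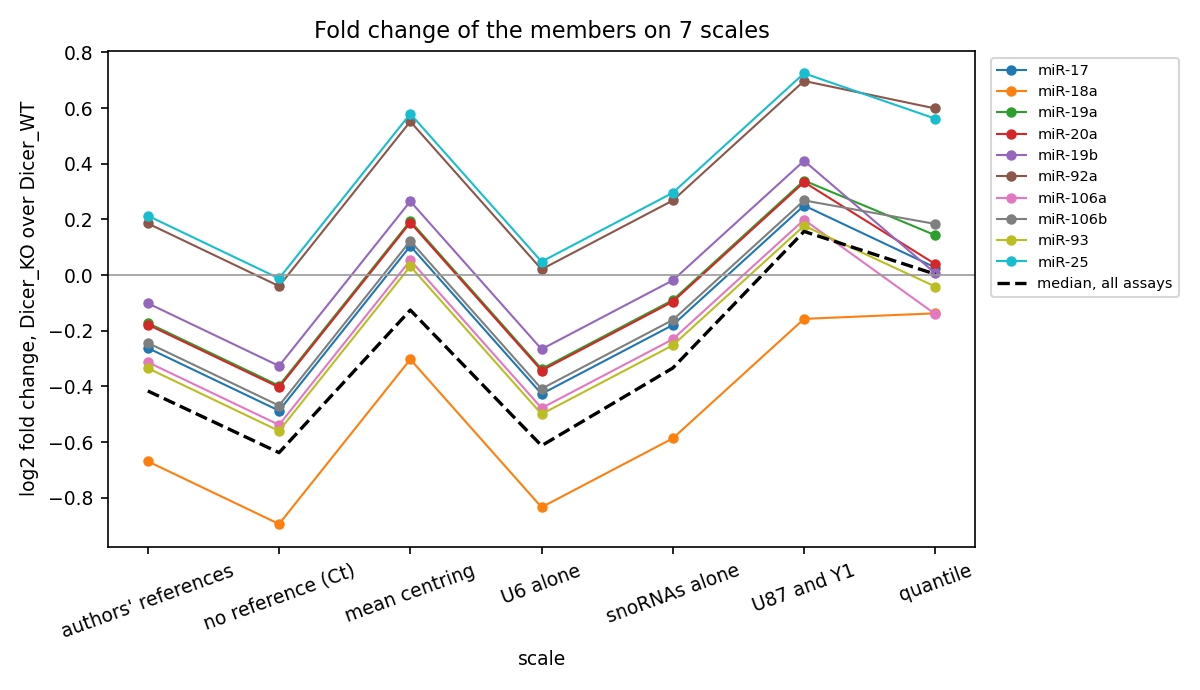
Log2 fold change, Dicer_KO over Dicer_WT (vertical axis), of each of the 10 members on 7 scales (horizontal axis), with the median of all assays tested as a dashed line and colours naming the members. The lines run parallel on the first 6 scales, miR-25 and miR-92a stay on top on all 7, and most members cross 0 with the choice of reference.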

How the data were processed

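Per the labels' protocols, aortas were perfused before RNA isolation, and microRNAs were read by TaqMan PCR after preamplification. Array version, software and threshold are not stated in what was used here. Of the authors' deposited tables, the first lists Ct values, where 40 stands for no product, on 2 cards of 335 and 182 microRNA assays. Decimal commas in 5 of its cells, none of a member, were read as points. The second gives the authors' relative quantities, a linear ratio. Its log2 equals the mean Ct of U6, snoRNA135 and snoRNA202 (on card 2 also snoRNA429) minus that of the assay, set to 0 for the Dicer_WT mean, with a largest difference of 9.82e-10 over the members. The third is the authors' deposited fold, a ratio of Dicer_KO to Dicer_WT.

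Wells at Ct 35 or above were set to 35. Assays detected in at least 2 aortas of a group, 377 of 517, were tested two-sided with limma (version 3.58.1, R 4.3.3), adjusted over all of them after Benjamini and Hochberg. The code was tested on simulated data. Values of 1 quantity per aorta were compared by exact permutation, adjusted over 45 pairs of members and, for pairs with related assays chosen after the data had been seen, over 9. The labels call the replicates biological. Members and lists were chosen with earlier results of these data known. All members and related assays, the 5 assays nearest to the members' mean profile and the tissue markers were named. Alternatives covered reference RNAs, centring, detection limits, filters, the model, the replicate number as a block and leaving out each aorta.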

Additional observations from a re-analysis of the deposited data

How the results depend on the processing

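Over 20 alternatives, 0 of 10 members were called in any, with adjusted p-values of 0.0962 to 0.992. No member reached Ct 32, so changes of detection limit and filter could not alter a member's log2 fold change. Neither could the replicate block or the trend and robust prior. Of 200 member values, with these fixed ones counted, 178 kept their sign and 22 reversed it. With mean centring 7 members did, miR-17 (0.10), miR-19a (0.19), miR-20a (0.19), miR-19b (0.27), miR-106a (0.053), miR-106b (0.12) and miR-93 (0.032). Relative to U87 and Y1 7 members did, miR-17 (0.25), miR-19a (0.34), miR-20a (0.33), miR-19b (0.41), miR-106a (0.20), miR-106b (0.27), miR-93 (0.18), as did 5 related assays, miR-17* (0.12), miR-18a* (0.16), miR-20a* (0.19), miR-93* (0.16) and miR-20b (0.10). After quantile normalization 5 members did, miR-17 (0.027), miR-19a (0.14), miR-20a (0.039), miR-19b (0.0063) and miR-106b (0.18), as did the related assay miR-18a* (0.064). On non-normalized Ct 2 did, miR-92a (-0.040) and miR-25 (-0.012). When 1 aorta was left out miR-19b was lowest without Dicer_WT replicate 3 (-0.26) and highest, with its sign reversed, without Dicer_WT replicate 1 (0.032). The other 8 members apart from miR-92a were also lowest without Dicer_WT replicate 3. Another scale shifts all assays of an aorta and card by the same amount, except quantile normalization.

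Medians moved by more than their spread between aortas as follows, in the order all members, miR-17-92, miR-106b-25, miR-17 seed, miR-19 seed and miR-25 and miR-92a seed. Mean centring gave 0.16, 0.19, 0.12, 0.10, 0.23 and 0.57, U87 and Y1 gave 0.30, 0.34, 0.27, 0.25, 0.38 and 0.71, and quantile normalization gave 0.033, 0.033, 0.18, 0.027, 0.075 and 0.58. Non-normalized Ct gave -0.44, -0.40, -0.49, -0.36 and -0.026 for all but miR-106b-25. Leaving out 1 aorta gave -0.38 to -0.13, -0.34 to -0.08, -0.39 to -0.16, -0.39 to -0.19, -0.28 to -0.03 and 0.07 to 0.30 in the same order. The lowest of the first 5 came without Dicer_WT replicate 3.

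Members whose groups do not overlap numbered 2 on non-normalized Ct, both lower in Dicer_KO aortas (31% of all assays lower, 1.06% higher). They numbered 3 with mean centring (20.2% and 9.81%), 4 relative to U87 and Y1 (10.3% and 17.2%) and 3 after quantile normalization (14.9% and 15.4%), all higher, with miR-25 and miR-92a among them each time. Pairs of members without overlap numbered 18 to 32 when 1 aorta was left out, with 30 without Dicer_WT replicate 3 and 32 without Dicer_KO replicate 2, since fewer aortas overlap less easily. They numbered 18 in relative quantities too, which was fixed in advance, as the reference RNAs cancel in a difference of 2 members of the same card.

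Over the whole table, 7 assays were called lower and 0 higher. The counts were 24 and 2 at a Ct limit of 32, 20 and 2 among assays detected in all 6 aortas, 28 and 2 with a trend and robust prior, and 13 lower with Ct 40 taken as measured. Calls split 7 lower to 1 higher with mean centring, 10 to 2 relative to the snoRNAs, 7 to 2 relative to U87 and Y1 and 6 to 3 after quantile normalization. Leaving out 1 aorta gave 5 to 55 lower and 0 to 9 higher, the most without Dicer_KO replicate 1. The cause was not tested. Same-numbered aortas did not deviate together (correlations of -0.084, -0.097 and 0.043 over 377 assays), nor did every aorta correlate best with its own number. A pairing by number was thus not shown. With 3 aortas per group, each centred on its own mean, these values cannot exclude one. With the replicate block, 7 assays were called lower, 0 higher and 0 members.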
